A study of Mus musculus with 10 samples.

Results

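The RNA of 10 genes for mitochondrial chaperones and proteases was compared between kidney cells of uromodulin-mutant mice and of wild-type littermates. The genes were Hspd1, Hspe1, Hspa9, Trap1, Dnaja3, Lonp1, Clpp, Clpx, Yme1l1 and Afg3l2. They were chosen by symbol, as genes of the mitochondrial unfolded protein response and proposed targets of the transcription factor ATF5, and all 10 were found among the 24541 gene symbols of the deposited table. The choice used no measured value of these genes, but it was made with earlier results of these data known. The mutants were 4 mice heterozygous for C105F, a cysteine to phenylalanine change in the protein encoded by Umod. The allele was introduced by injecting Cas9 and guide plasmids with a donor strand into C57BL/6J embryos. The controls were 6 wild-type littermates, and all mice were between 12 and 16 weeks old on a C57BL/6 background. From each mouse, live cells of the digested, perfused kidney were selected with magnetic beads against F4/80, a macrophage surface protein, and their polyadenylated RNA was sequenced. The study asked whether macrophages that take up aggregated uromodulin change their gene expression.

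Most mitochondrial proteins are made in the cytosol and enter mitochondria unfolded. Chaperones in the matrix pull them in and fold them, and proteases of the matrix and inner membrane degrade those that are damaged or unpaired. When misfolded proteins accumulate, animal cells can raise transcription of these chaperones and proteases, a program called the mitochondrial unfolded protein response. In Caenorhabditis elegans it is driven by ATFS-1, and ATF5 has been proposed as the mammalian counterpart. Mitochondrial stress in mammalian cells is also relayed through ATF4 and CHOP (encoded by Ddit3), which belong to the integrated stress response. Kidney tubule cells, above all those of the proximal tubule, are rich in mitochondria.

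The selected cells were a mixture. Adgre1, which encodes F4/80, had 58.2, 58.6, 229 and 819 CPM in mutant replicates 1, 2, 4 and 5, against 14.0 to 406 CPM in the wild-type libraries (CPM, counts scaled to a common library size with TMM factors). The summed level of 15 resident macrophage markers was 1489 to 13172 CPM in mutants and 859 to 6321 CPM in wild type. The summed level of 15 proximal tubule markers was 46527 to 94588 CPM in mutants and 49353 to 109757 CPM in wild type, above the macrophage sum in every library, and no marker of either list was at 0. The summed level of 13 markers of the thick ascending limb and distal tubule, Umod among them, was 4283 to 11021 CPM in mutants and 12592 to 26241 CPM in wild type, without overlap, and its part in the members' values was not tested. Most of that gap came from Umod and from Egf, which encodes epidermal growth factor and fell to 639 ± 404 CPM over the 4 mutants, against 4345 ± 1210 CPM over the 6 wild-type mice (mean ± SD; edgeR adjusted p = 0.0345). The other 11 markers summed to 2980 to 5609 CPM in mutants and 4020 to 5876 CPM in wild type, which overlapped. In such bulk samples, fewer cells of a type and less RNA per cell cannot be told apart. Umod, the edited gene, averaged 2470 ± 1615 CPM over the 4 mutants and 10076 ± 3056 CPM over the 6 wild-type mice (mean ± SD; edgeR adjusted p = 0.184). Umod passed with DESeq2 (adjusted p = 0.000171) and in 3 other alternatives, but a substitution of 1 amino acid is not checked by the RNA level. Library totals ran from 45380415 to 73643200 estimated counts, and each of the 10 genes had at least 2285 counts in every library, so counting error was small beside the spread between mice.

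Upstream sequences were read for the genes whose genome windows bear on what follows. Hspd1 and Hspe1 lie head to head on chromosome 1, with 215 bases between the transcripts in the deposited table. By these coordinates both are transcribed outward from the same short region. A second RefSeq window of Hspd1, at chr1:55088194-55088493, lies inside the Hspe1 locus. The shared region is shown because it holds a run of overlapping heat shock units, which no other window searched did. Lonp1 and Trap1 are shown because their upstream regions were the only ones, among the 8 members with a window, with the cyclic AMP response core TGACGT, to which factors of the ATF and CREB families are known to bind. The sequences come from RefSeq on GRCm38.p6 and run 5′ to 3′ on the strand named. Capitals mark matches to the motifs searched.
Hspe1 and Hspd1 shared region, chr1:55087933-55088147, plus strand: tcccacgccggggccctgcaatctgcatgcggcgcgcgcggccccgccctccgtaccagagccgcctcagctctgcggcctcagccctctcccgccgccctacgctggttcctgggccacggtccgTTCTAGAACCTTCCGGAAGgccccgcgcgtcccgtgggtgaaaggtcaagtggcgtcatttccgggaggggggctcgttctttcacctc
Lonp1, chr17:56626904-56627153, minus strand: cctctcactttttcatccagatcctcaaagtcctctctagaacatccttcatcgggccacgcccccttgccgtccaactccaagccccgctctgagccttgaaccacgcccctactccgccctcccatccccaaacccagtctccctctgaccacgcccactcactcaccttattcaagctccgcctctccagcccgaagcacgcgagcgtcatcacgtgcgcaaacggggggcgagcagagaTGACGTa
Trap1, chr16:4077811-4078060, minus strand: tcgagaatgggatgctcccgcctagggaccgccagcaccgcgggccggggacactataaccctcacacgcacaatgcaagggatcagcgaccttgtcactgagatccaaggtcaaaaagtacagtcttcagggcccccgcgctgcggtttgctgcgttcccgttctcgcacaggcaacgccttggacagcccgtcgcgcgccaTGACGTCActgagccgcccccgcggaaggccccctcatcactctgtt

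In the shared Hspe1 and Hspd1 region the capitals hold TTCTAGAA, GAACCTTC and TTCCGGAA in overlap, which match the heat shock units TTCNNGAA and GAANNTTC, together with CCGGAAG, an ETS motif, on both strands. Of 32851 RefSeq windows, each running from 250 bases before to 50 bases after a start site, 8.52% hold TTCNNGAA on either strand and 7.86% hold GAANNTTC. In the Trap1 region this core occurs on both strands, as TGACGTCA, and 7.51% of all windows hold TGACGT. The longer C/EBP-ATF core TGATGNAA, which 3.97% of all windows hold, was not found in the 9 windows of the 8 members other than Hspa9 and Afg3l2. The NRF1 motif, GCGCA and GCGC with 1 free base between them, which 4.60% of windows hold, occurred in a Dnaja3 window and a second Hspd1 window, and CCGGAAG, which 8.86% hold, occurred also in the Yme1l1, Dnaja3 and Clpp windows. The Clpp window also holds 1 heat shock unit, TTCCGGAA, which overlaps its ETS motif. These matches describe letters in a window and show no binding.

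The factors proposed to act on these genes were higher in the mutants. Atf5 had 118, 153, 87.5 and 83.4 CPM in the mutant libraries, against 11.0 to 19.6 CPM in the wild-type libraries, a 7.74-fold rise (95% interval 5.53 to 10.8, edgeR adjusted p = 0.00029). Ddit3 had 34.8, 36.5, 18.0 and 23.1 CPM in the mutants, against 5.84 to 11.9 CPM in wild type, and rose 3.34-fold (95% interval 2.32 to 4.82, edgeR adjusted p = 0.0137). Ddit3 did not pass without mutant replicate 1 (edgeR adjusted p = 0.0755), without mutant replicate 2 (0.0604) or without wild-type replicate 2 (0.0564), with log2 fold changes of 1.61, 1.58 and 1.70 against 1.74 with all libraries. Atf4 averaged 129 ± 14.3 CPM over the 4 mutants and 64.3 ± 14.3 CPM over the 6 wild-type mice (mean ± SD) and did not pass (edgeR adjusted p = 0.0575). For all 3 genes each mutant library lay above each wild-type library, as for 0.946% of all genes tested.

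None of the 10 chaperone and protease genes was called. In edgeR 0 of 10 passed an adjusted p under 0.05, where 0.198% of all 15123 genes tested passed, 0.179% higher and 0.0198% lower in mutants. Of the 10, 0 had an unadjusted p under 0.05, where 5.9% of all genes did. DESeq2 also called 0 of the 10, where it called 143 of all 15123 genes. The smallest edgeR adjusted p among the 10 was 0.959. Fold changes of the members were positive for 6 genes and negative for 4, where 51.2% of all genes tested were positive. The members had a median log2 fold change of 0.01, the same as the median of 0.01 over all genes tested. In 0 of the 10 genes did the mutant and wild-type libraries separate, where 1.96% of all genes separated, 0.946% with all mutants above and 1.02% with all mutants below. The 95% intervals of all 10 fold changes lay within a 2-fold change in either direction, and those of 8 genes, all but Hspe1 and Clpx, lay within a 1.5-fold change.

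**Figure D1:**
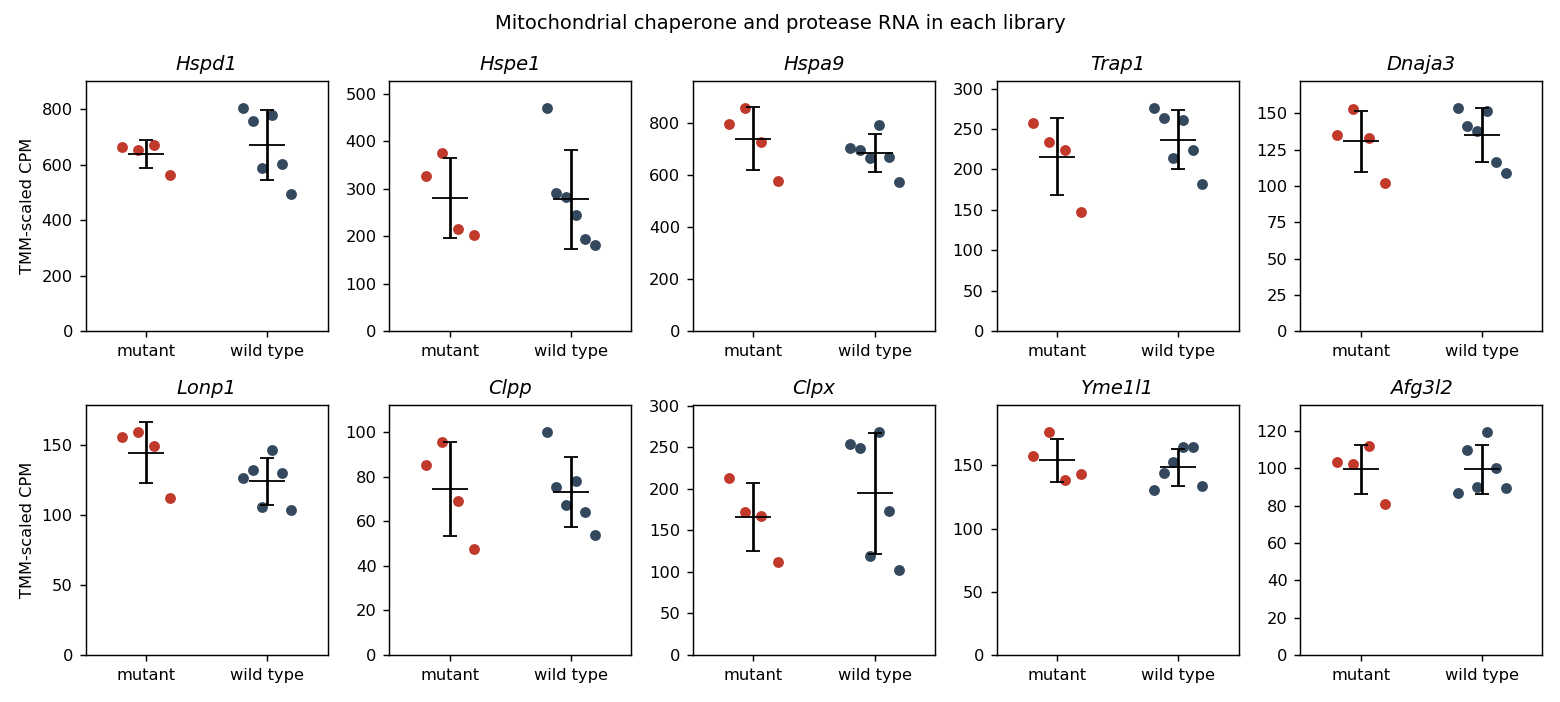
TMM-scaled CPM of the 10 genes in each library (points), with the group mean and SD (bars; mutant n = 4, wild type n = 6) on axes that start at 0. In every panel the ranges of the groups overlap, as for Hspd1, with 562 to 670.4 CPM in mutants and 494 to 804 CPM in wild type.

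**Figure D2:**
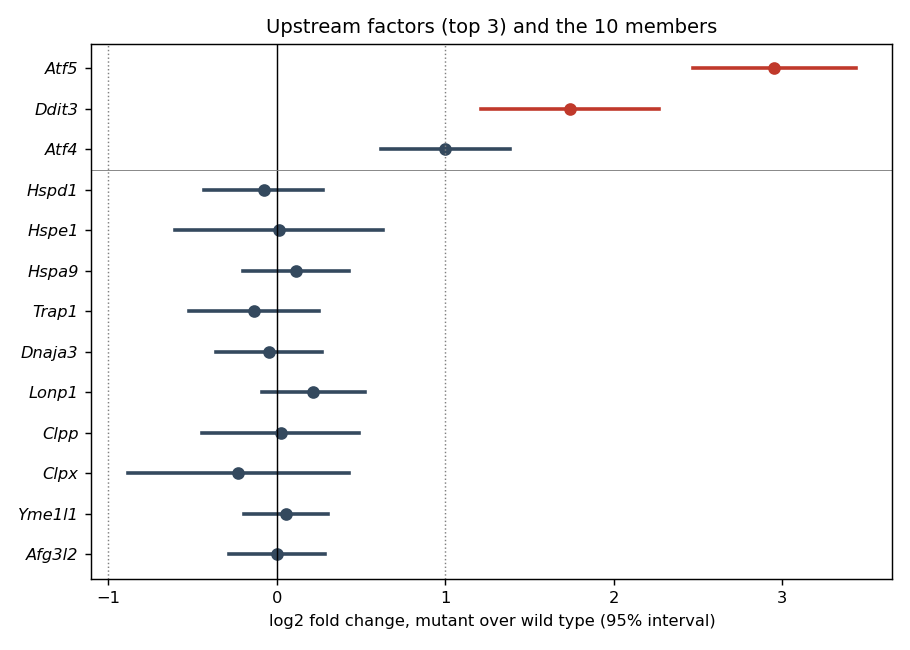
Log2 fold change of mutant over wild type with its 95% interval for Atf5, Ddit3 and Atf4 (above the line) and for the 10 chaperone and protease genes, with genes at an edgeR adjusted p under 0.05 in red. The intervals of the 10 genes all include 0 and end below 1, whereas that of Atf5 starts at 2.47.

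The chaperonin genes were among the most abundant members, and neither passed the test. Hspd1 encodes the large chaperonin ring subunit, in which matrix proteins fold, and Hspe1 encodes the lid that closes it. Hspd1 (gene 15510, chromosome 1, 55077834 to 55087932, mm10) had 663, 651, 670.4 and 562 CPM in mutant replicates 1, 2, 4 and 5, against a lowest, median and highest wild-type value of 494, 679.9 and 804 CPM. All mutant libraries lay inside the wild-type range, and all were below the wild-type median. Its log2 fold change was -0.08 (SE 0.161, edgeR adjusted p = 0.972). The 95% interval of the fold change ran from 0.743 to 1.21.

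Hspe1 (gene 15528, chromosome 1, 55088148 to 55091317) had 327, 376, 216 and 203 CPM in mutant replicates 1, 2, 4 and 5, against 182, 264 and 471 CPM as the lowest, median and highest wild-type values. Both groups spread widely, with mutant replicates 1 and 2 high and replicates 4 and 5 low, all inside the wild-type range. Mutant over wild type, the log2 fold change was 0.02 (SE 0.280, edgeR adjusted p = 0.997). The 95% interval of 0.659 to 1.55 reached highest of the 10 genes. The number of Hspe1 counts per Hspd1 count was 0.494, 0.577, 0.322 and 0.362 in the mutants and 0.313 to 0.585 in wild type. The mean log2 ratio was -1.23 ± 0.389 in mutants (SD, n = 4) and -1.33 ± 0.349 in wild type (SD, n = 6), a difference of 0.10 (two-sided exact permutation test over 210 assignments, p = 0.710). A shift of lid against ring transcripts was not detectable with these libraries. The GENCODE M21 annotation names 5 pseudogenes after Hspd1, 6 after Hspe1 and 1 after Hspa9. Copies under other names were not counted for any member. The sources used here do not say how reads shared with such copies were apportioned, which leaves these 3 levels uncertain.

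Hspe1 varied together with other short transcripts across the libraries. Its transcript has 768 bases, the shortest of the 10 genes. The deviation of Hspe1 from its mean over all libraries, in log2 CPM, was 0.30, 0.50, -0.30 and -0.39 in mutant replicates 1, 2, 4 and 5, against -0.55 to 0.82 in wild type. The median deviation of 1156 genes with transcripts of at most 1000 bases, minus that of 4347 genes with at least 4000 bases, was 0.39, 0.61, -0.33 and -0.57 in the same mutants, against -0.39 to 0.81 in wild type. Both values had the same sign in every library except wild-type replicate 2, with -0.05 for the short transcripts and 0.13 for Hspe1. The part of this trend in the Hspe1 values was not tested.

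**Figure D3:**
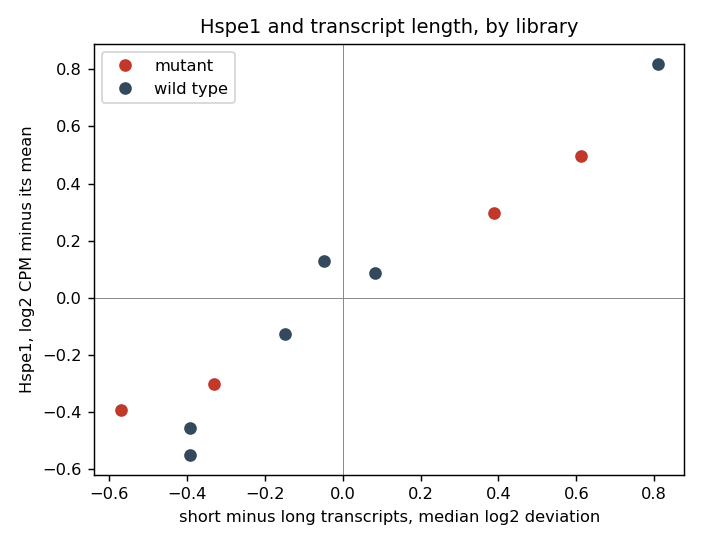
Deviation of Hspe1 from its mean over the 10 libraries (log2 CPM, vertical axis) against the deviation of short transcripts minus that of long transcripts (log2 CPM, horizontal axis), with mutant and wild-type libraries in separate colours. Hspe1 was highest, at 0.82, in the library with the largest short-transcript excess of 0.81, and libraries of both genotypes lie at either end.

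The genes of the import motor and its relatives also overlapped between genotypes. Hspa9 encodes mortalin, the matrix Hsp70 that pulls incoming proteins across the inner membrane. Hspa9 (gene 15526, chromosome 18, 34937415 to 34954351) had 796, 858, 728 and 578 CPM in mutant replicates 1, 2, 4 and 5, against 572, 685 and 794 CPM as the lowest, median and highest wild-type values. Mutant replicates 1 and 2 were above every wild-type library, and replicate 5 was near the wild-type minimum. The log2 fold change of Hspa9 was 0.11 (SE 0.143, edgeR adjusted p = 0.960).

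Dnaja3 encodes a J-domain protein that stimulates Hsp70 chaperones in mitochondria. Dnaja3 (gene 83945, chromosome 16, 4684070 to 4707693) had 135, 153, 133 and 102 CPM in mutants, against 109, 139.5 and 154 CPM as the lowest, median and highest wild-type values. Mutant replicate 5 was the lowest of all libraries, and only 1 mutant exceeded the wild-type median. The log2 fold change of Dnaja3 was -0.05 (SE 0.143, edgeR adjusted p = 0.983). Of its 2 transcripts in the table, that of 2646 bases took 18.4 ± 1.40% of the counts in mutants (SD, n = 4) and 19.3 ± 4.74% in wild type (SD, n = 6), which differed by less than the spread (two-sided exact permutation test, p = 0.790, adjusted over both genes with several transcripts also 0.790).

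Trap1 encodes the mitochondrial member of the Hsp90 family. Trap1 (gene 68015, chromosome 16, 4039977 to 4077810) had 257, 234, 225 and 147 CPM in mutants, against 182, 243 and 276 CPM as the lowest, median and highest wild-type values. Mutant replicate 5 was below the wild-type range and the other 3 mutants were inside it. For Trap1 the log2 fold change was -0.14 (SE 0.175, edgeR adjusted p = 0.960). The annotated Trap1 locus shares 48 bases with Dnase1, which had 239 to 1363 CPM, and whether counting used strand is not stated.

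Among the matrix proteases, Lonp1 came nearest to a difference and did not pass. Lonp1 encodes the Lon protease, which degrades oxidised and misfolded matrix proteins. Lonp1 (gene 74142, chromosome 17, 56614298 to 56626903) had 156, 159.9, 149.7 and 112 CPM in mutant replicates 1, 2, 4 and 5, against 104, 128 and 147 CPM as the lowest, median and highest wild-type values. Mutant replicates 1, 2 and 4 were above every wild-type library, and replicate 5 was below the wild-type median. The means were 145 ± 21.8 CPM over the 4 mutants and 124 ± 16.6 CPM over the 6 wild-type mice (mean ± SD). The fitted log2 fold change of Lonp1 was 0.22 (SE 0.138), a ratio of 1.16 with a 95% interval of 0.942 to 1.44, with an unadjusted p of 0.142, the smallest of the 10, and an edgeR adjusted p of 0.959.

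Clpp encodes the peptidase of the ClpXP complex, and Clpx encodes the ATPase that unfolds and feeds its substrates. Clpp (gene 53895, chromosome 17, 56990264 to 56996371) had 85.4, 95.3, 69.2 and 47.3 CPM in mutants, against 53.7, 71.3 and 100.2 CPM as the lowest, median and highest wild-type values. The mutants lay on both sides of the wild-type median, with replicate 5 the lowest of all libraries. For Clpp the fitted log2 fold change was 0.02 (SE 0.211, edgeR adjusted p = 0.996).

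Clpx (gene 270166, chromosome 9, 65294260 to 65330658) had 213, 172, 167 and 112 CPM in mutants, against 102, 211 and 269 CPM as the lowest, median and highest wild-type values. All mutants were inside the wild-type range, and 1 exceeded its median. The fitted log2 fold change of Clpx was -0.23 (SE 0.298, edgeR adjusted p = 0.961), and its interval, 0.542 to 1.35, reached lowest of the 10 genes. The Clpx transcript of 2844 bases took 29.0%, 29.2%, 18.3% and 29.4% of the Clpx counts in mutants and 12.9% to 25.3% in wild type. The means were 26.5 ± 5.46% in mutants (SD, n = 4) and 19.8 ± 4.14% in wild type (SD, n = 6), and mutant replicate 4 lay among the wild-type values. The difference of 6.71 percentage points did not pass (two-sided exact permutation test, p = 0.0667, and 0.133 adjusted over the 2 genes).

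The inner membrane proteases varied least. Yme1l1 encodes an ATP-dependent protease facing the intermembrane space, and Afg3l2 encodes a subunit of the m-AAA protease facing the matrix. Yme1l1 (gene 27377, chromosome 2, 23156505 to 23199260) had 158, 177, 139 and 143 CPM in mutants, against 131, 149 and 165 CPM as the lowest, median and highest wild-type values. Only mutant replicate 2 was outside the wild-type range, above it. The Yme1l1 log2 fold change was 0.05 (SE 0.114, edgeR adjusted p = 0.972).

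Afg3l2 (gene 69597, chromosome 18, 67404764 to 67449136) had 103, 102, 112 and 80.9 CPM in mutants, against 87.0, 95.1 and 119.6 CPM as the lowest, median and highest wild-type values. Mutant replicate 5 was below the wild-type range, and the other 3 were above its median. The means were 99.5 ± 13.1 CPM over the 4 mutants and 99.4 ± 13.1 CPM over the 6 wild-type mice (mean ± SD), a ratio of 1.00 with a 95% interval of 0.822 to 1.22 (edgeR adjusted p = 1.000).

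Between all 10 libraries, the ratio of highest to lowest CPM ran from 1.35 for Yme1l1 to 2.59 for Hspe1 and 2.63 for Clpx. In FPKM, which divides by transcript length and so allows levels of genes to be compared, the order of mean levels was Hspe1 (352), Hspd1 (277), Hspa9 (229), Trap1 (97.6), Clpx (61.9), Clpp (59.5), Dnaja3 (51.4), Lonp1 (44.0), Yme1l1 (32.6) and Afg3l2 (32.2). The ranges of neighbours in this order overlapped, except that the lowest Hspa9 value, 197 FPKM, exceeded the highest Trap1 value, 114 FPKM. The folding chaperones Hspe1, Hspd1 and Hspa9 were thus above the other 7 genes in every library. Clpx and its partner Clpp did not keep an order, with Clpx higher in 6 of 10 libraries.

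The other genes of mitochondrial protein handling gave no calls in the comparison of all 10 libraries without covariates. The lists were 9 chaperone cofactors, 17 other mitochondrial proteases, counted with the scaffold genes Phb, Phb2 and Stoml2, and 23 import genes, all tested. Of these genes edgeR and DESeq2 called 0, and 0 had an unadjusted p under 0.05 in edgeR. The median log2 fold changes of the lists were -0.03, -0.02 and 0.02 in the same order, against 0.01 over all genes tested. The import chaperone gene Timm9, at 0.35 (SE 0.220, edgeR adjusted p = 0.959), and Mipep, which encodes the mitochondrial intermediate peptidase, at -0.29 (SE 0.160, edgeR adjusted p = 0.949), had the smallest p of their lists. Timm9 passed in 1 alternative, with the mitochondrial content score as covariate (log2 fold change 0.52, edgeR adjusted p = 0.0499). The cofactor genes with the smallest p were Timm44, with a log2 fold change of -0.08, Dnajc15, with 0.15, and Grpel1, which encodes the nucleotide exchange factor of mortalin, with -0.11.

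Of 16 regulators of mitochondrial stress signalling and biogenesis, 15 were tested and Atf5 and Ddit3 rose, against 0.179% of all genes that were higher in mutants, and 0 fell. Both are transcription factor genes of the stress response and not mitochondrial proteins. Ppargc1a, which encodes the coactivator PGC-1alpha of mitochondrial biogenesis, was chosen for mention after its values were seen. It averaged 40.0 ± 7.36 CPM over the 4 mutants and 59.0 ± 9.02 CPM over the 6 wild-type mice (mean ± SD) and did not pass (edgeR adjusted p = 0.377). All mutant libraries lay below all wild-type libraries, as for 1.02% of all genes tested.

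Cytosolic heat shock genes had positive fold changes in 12 of 13 genes, where 51.2% of all genes tested were positive. The 13 had a median log2 fold change of 0.31, yet edgeR and DESeq2 called 0 of them. Only Hspa8, the constitutive cytosolic Hsp70, had an unadjusted p under 0.05, with 2952 ± 363 CPM over the 4 mutants and 2281 ± 368 CPM over the 6 wild-type mice (mean ± SD; edgeR adjusted p = 0.816). Mitochondrial content was gauged by 21 genes, mainly of the respiratory chain, ATP synthase and citrate cycle, with Vdac1, Slc25a4, Slc25a5 and Etfa beside them. Of the 21, 1 was positive and 0 were called by edgeR or DESeq2, with 0 at an unadjusted p under 0.05. Their median was -0.15, and it ran from -0.34 to -0.03 when each library was left out in turn. Sdha, a succinate dehydrogenase subunit, had the smallest p, with -0.26 on the log2 scale (SE 0.147, edgeR adjusted p = 0.957). The mean log2 level of the 10 members minus that of these 21 genes, both centred over the libraries, was -0.03, -0.10, 0.26 and 0.29 in mutant replicates 1, 2, 4 and 5, against -0.28 to 0.11 in wild type.

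**Figure D4:**
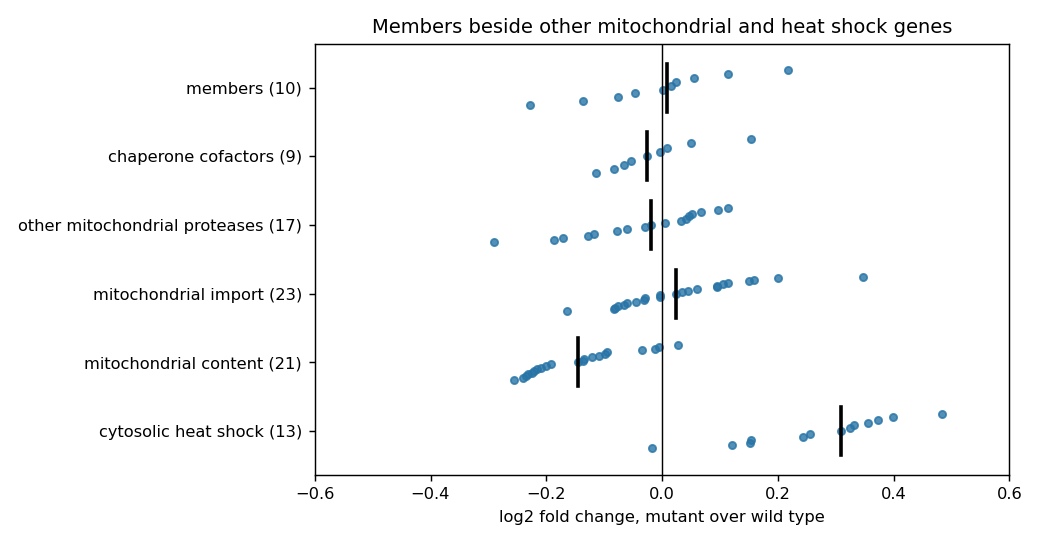
Log2 fold change of mutant over wild type for each gene (points) of the members and of the other lists, with the list median marked. The members centre on 0.01, the cytosolic heat shock genes on 0.31 and the mitochondrial content genes on -0.15.

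The levels of several members moved with the marker levels of the library. Macrophage and tubule scores are the mean log2 CPM of the 15 markers of each list, centred over the libraries. Mutant replicates 1, 2, 4 and 5 had macrophage scores of -0.63, -0.68, 0.88 and 2.48, against -1.93 to 1.61 in wild type. Mutant replicate 5, the lowest library for Clpp, Trap1, Afg3l2 and Dnaja3, had the highest macrophage score, and wild-type replicate 6, the lowest for Hspd1, Hspe1, Hspa9, Lonp1 and Clpx, had the next highest.

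Over the 10 libraries, 20 relations of members to both scores were computed, with permutation p-values adjusted over the 20. All 10 members were negatively related to the macrophage score, with Pearson's r between -0.88 and -0.13, and Trap1, Clpp, Dnaja3, Hspe1, Hspd1 and Clpx passed by r. By rho, Trap1, Dnaja3 and Hspe1 passed, and Clpp (adjusted 0.0510), Hspd1 (0.134) and Clpx (0.134) did not. Of all 15123 genes tested, 14.9% had an r at least as far below 0 as Clpx, the weakest of those 6. Hspe1 had r = -0.85 (permutation p = 0.00189, adjusted 0.00630) and rho = -0.84 (permutation p = 0.00391, adjusted 0.0195). Leaving out the 2 libraries with the most distant scores gave r = -0.86, and the 6 wild-type libraries alone gave -0.93. The deviation of short minus long transcripts was highest, at 0.81, in wild-type replicate 1, with the lowest score of -1.93. It was lowest, at -0.57, in mutant replicate 5, with the highest score of 2.48, but -0.05 in wild-type replicate 2, with a score of -1.44. Whether Hspe1 follows the score or this length trend was not tested. Trap1 had r = -0.88 (permutation p = 0.00056, adjusted 0.00408), and rho = -0.76 (permutation p = 0.0147, adjusted 0.0490), with r = -0.65 without the 2 farthest libraries and -0.83 within wild type. Without them r was -0.51 for Hspd1 and -0.39 for Clpx, and it turned positive for Afg3l2 (0.49), Yme1l1 (0.33), Lonp1 (0.28) and Hspa9 (0.02).

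All 10 members were positively related to the tubule score, with r between 0.29 and 0.91. By r 7 passed, and by rho 3 did, namely Hspd1, Clpx and Trap1. Of all genes tested, 8.86% had an r at least as high as Hspa9, the weakest of the 7. Clpx had r = 0.88 (permutation p = 0.00055, adjusted 0.00408) and rho = 0.94 (permutation p = 0.00023, adjusted 0.00460), with r = 0.82 without the 2 farthest libraries and 0.91 within wild type. The relations of Dnaja3, Clpp and Hspa9 to the tubule score rest on the 2 farthest libraries, since without them r was 0.08, 0.14 and 0.13, and r turned negative for Hspe1 (-0.15) and Yme1l1 (-0.09). The mutants number 4, too few for a relation of their own. In fits with either score as a covariate, 0 of 10 members were called. Of all 15123 genes, 53 were called with the macrophage score and 25 with the tubule score.

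**Figure D5:**
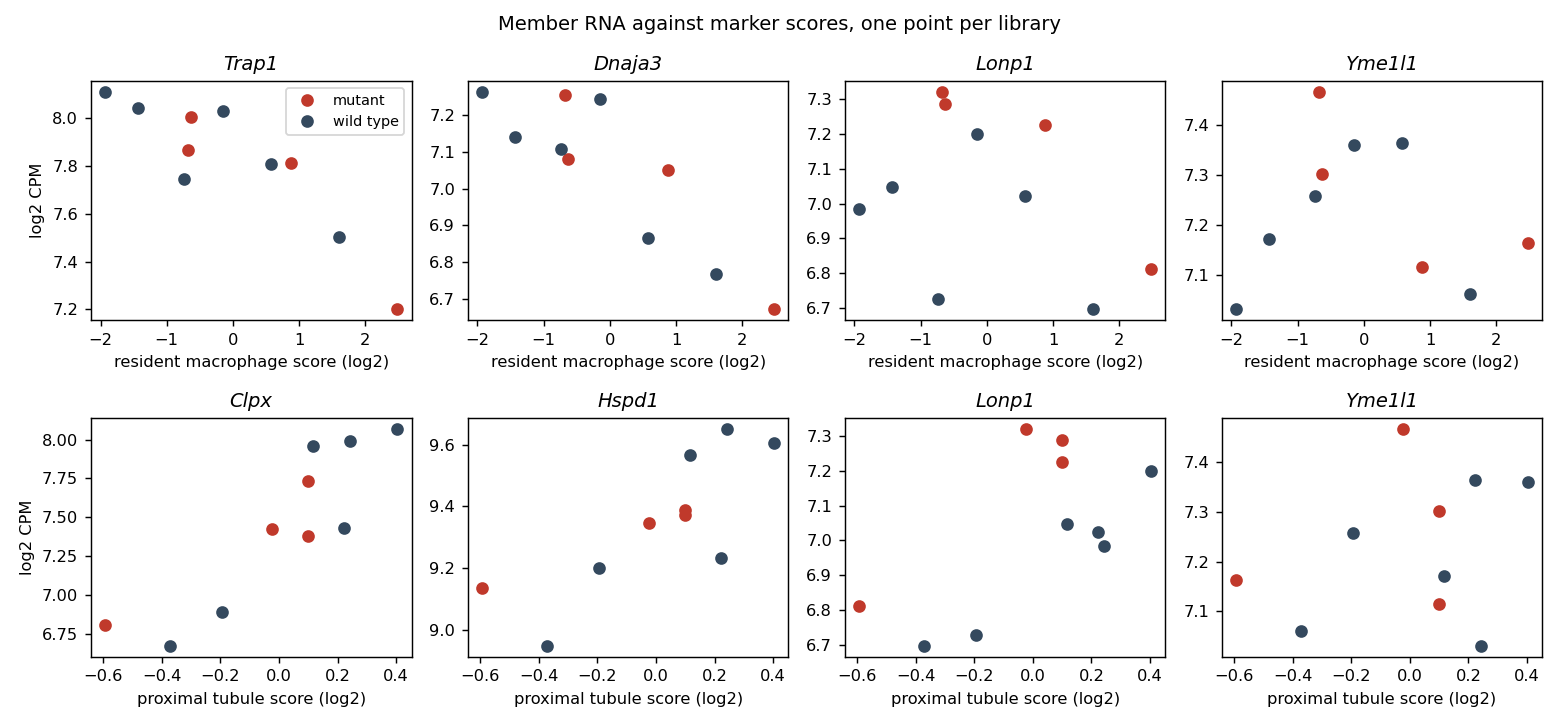
Log2 CPM of members against the resident macrophage and proximal tubule marker scores, with 1 point per library and mutant and wild-type libraries in separate colours. Trap1 falls with the macrophage score (r = -0.88) and Clpx climbs with the tubule score (r = 0.88), and Yme1l1 (r = -0.13 and 0.29) shows no such trend.

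Members also varied together. Of 45 pairs of members, 35 had a Pearson's r over 0.5 across the 10 libraries, with a median of 0.65, as a description of libraries that also differ in these marker scores. The share over pairs of other genes was not computed. The same variation was seen in related lists. The member score was highest in wild-type replicate 1 (0.23) and lowest in mutant replicate 5 (-0.37). In the same 2 libraries the content score was 0.50 and -0.66, and the import score 0.50 and -0.42. The closest pairs were Hspd1 with Clpx (0.95), Clpp with Dnaja3 (0.92) and Hspa9 with Lonp1 (0.90), and the least related was Hspe1 with Afg3l2 (-0.01). The 5 genes most like Lonp1 over the 10 libraries were Ddx56 (r = 0.96), Nqo1 (0.95), Psmd1 (0.93), Mars (0.93) and Tmem5 (0.92). Those most like Hspa9 were Tbc1d19 (0.96), Pih1d2 (0.96), Xrcc5 (0.95), Gas2 (0.94) and Frrs1 (0.93).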

How the data were processed

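Polyadenylated RNA of F4/80-selected kidney cells from 4 mutant and 6 wild-type mice was sequenced from 75 ng of total RNA per library with a directional kit, per the labels' protocols. Per the submitters' processing notes the build was mm10 and the tools were StringTie 1.3.4d, HISAT2 2.1.0, Trimmomatic 0.38, DESeq2 and Bowtie2 2.3.4.1, with no role stated for any of them. The deposited table holds estimated counts for 36779 transcripts and FPKM values by the authors, per the file headers. For 100% of transcripts with 20 or more counts, the count was the FPKM times the length times 1 factor for each library, to 1 read or 0.5%.

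Estimated counts, whole numbers as deposited, were summed per gene symbol. After edgeR's default filter on low counts 15123 genes were tested with TMM scaling and edgeR's quasi-likelihood test (edgeR 4.0.16, limma 3.58.1, R 4.3.3), with Benjamini-Hochberg adjustment over all of them and a threshold of 0.05. All 10 members passed the filter. DESeq2 1.42.0 was an alternative. Levels and marker scores use log2 CPM with a prior count of 2. Relations and permutation tests were computed with Python 3.11.15, pandas 2.3.3 and scipy 1.17.1, and plots with matplotlib 3.10.9. The count test was tested on simulated data. No libraries of a group agreed within sampling noise. The mice are separate animals per the labels.

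The members and the lists were chosen with earlier results of these data known. The text names all members, Atf5, Atf4, Ddit3, Adgre1, Umod, genes among the 3 with the smallest p of each other list, and the 5 genes most correlated with each of the 2 members of smallest p. Alternatives were other size factors, no filter, DESeq2, single transcripts, marker scores as covariates, a replicate block, leaving out each library and, added after seeing the data, a mitochondrial content score as covariate. Standard errors and 95% intervals of fold changes were derived from the test's F statistic.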

Additional observations from a re-analysis of the deposited data

Results flagged for a closer look

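Of 52 groups of values examined for a library that stands apart, 2 had one, and chance gives about 1 in 20. Among wild-type libraries, Adgre1 in replicate 6 stood at 406 CPM, in a group that ran from 14.0 to 406 CPM. Among mutants, the Clpx transcript of 2844 bases took 18.3% of the Clpx counts in replicate 4, against 29.0% to 29.4% in the other 3 mutants.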

How the results depend on the processing

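No member was called under any of the alternatives run, and the median log2 fold change of the members ran from -0.11 to 0.09. The count of all genes called was 30 and moved to 143 with DESeq2 (66 higher and 77 lower in mutants), 13 for single transcripts, 53 with the macrophage score as covariate, 68 with the mitochondrial content score, which was chosen after seeing the data, and 14 to 24 when each library was left out in turn. Mutants and wild type share replicate numbers 1, 2, 4 and 5, which the labels tie to no shared litter or day. Adgre1 rose with the replicate number in both groups, with 14.0, 27.5, 63.9, 102, 145 and 406 CPM in wild-type replicates 1 to 6. In mutant replicates 1, 2, 4 and 5 it was 58.2, 58.6, 229 and 819 CPM. A block by number thus also follows the Adgre1 level, and the part of this in the calls with the block was not tested. The deviations of same-numbered libraries correlated at 0.43, 0.28, 0.02 and 0.44, over 0.1 in 3 of 4 pairs, and 1 of 4 mutants correlated best with its own number, so the numbers were not taken to pair the samples. With the replicate block on these 8 libraries 217 genes were called and 0 members, and without the block 21. The block also called 11 of the 15 macrophage markers, Adgre1 among them (log2 fold change 1.70, edgeR adjusted p = 0.0302, against 0.656 for the same libraries without the block). The smallest edgeR adjusted p of a member under any alternative was 0.0950, for Clpx with the block, against 0.630 for the same libraries without it.

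Values near 0 changed sign in many alternatives, and the cause was not tested. Afg3l2 had -0.0024 with DESeq2 size factors and with the DESeq2 test, -0.012 without a filter, -0.013 for single transcripts, -0.066 with the block and -0.065 without it. With the block and without it, Hspe1 had -0.065 and -0.096, and Clpp had -0.12 and -0.095. With the macrophage score as covariate, Hspd1 had 0.045, Clpx 0.015, Trap1 0.0010, Dnaja3 0.069 and Grpel1 0.082. With the tubule score, Hspd1 had 0.044, Clpx 0.092, Dnaja3 0.038 and Grpel1 0.012, and with the content score Hspd1 had 0.015, Dnaja3 0.050 and Grpel1 0.053. When each library was left out in turn, log2 fold changes ran from -0.17 to 0.22 for Hspe1, -0.13 to 0.19 for Clpp, -0.059 to 0.088 for Afg3l2, -0.027 to 0.10 for Yme1l1, -0.25 to 0.0087 for Trap1, -0.14 to 0.055 for Dnaja3, -0.15 to 0.0065 for Timm44, -0.24 to 0.026 for Grpel1, -0.12 to 0.33 for Dnajc15 and -0.13 to 2.05 for Adgre1, and the log2 Hspe1 to Hspd1 ratio differed by -0.047 to 0.23. Lonp1 and Hspa9 were positive in all alternatives run.

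Atf5 passed in every alternative, with adjusted p-values up to 0.00252. Ddit3 missed the threshold for single transcripts (log2 fold change 1.77, edgeR adjusted p = 0.0693) and without each of the 3 libraries named above. Atf4 passed with DESeq2 (adjusted p = 0.000201), the macrophage score (0.0144), the content score (0.0225) and the block (0.0216). Umod passed with DESeq2 (adjusted p = 0.000171), the macrophage score (0.0142), the content score (0.00281) and the block (0.0181). The median of the import genes was 0.19 with the content score and 0.21 with the macrophage score. For the mitochondrial content genes the median was -0.03 with the macrophage score and -0.08 with the tubule score, against -0.15 without a covariate. With 4 mutants, changes of the members smaller than their intervals were not detectable.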
